A study of Mus musculus with 2 samples.

Results

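A list of 32 mouse nuclear receptor genes, taken by gene symbol, was described in the RNA of 2 chondrocyte libraries. Of these, 27 were among the 13138 genes of the deposited table, and Nr5a2, Rarb, Rorb, Esrrb and Pgr were not in it, so their expression was not analysed here. The libraries came from primary mouse chondrocytes of strain C57Bl/6 kept ex vivo as high-density micromass cultures. One is labelled hdac3-knockout and received an adenovirus carrying Cre recombinase, and the other is labelled wild-type and received a GFP control adenovirus. The labels do not give the floxed allele, the age of the animals, how many animals or dishes went into a library, or the time after transduction, and the source field of both names a K27ac ChIP sample although title and library type name RNA. Each group holds 1 library, so no difference below has a replicate check or a p-value, and each compares these 2 cultures only. Hdac3 itself was at 10.68 in the Cre-labelled library and 10.69 in the GFP-labelled library (log2 normalized count). That check did not bear out the knockout label: this total over the whole gene is level, and which exons the recombinase removes is not given. The libraries are therefore called by their labels.

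Nuclear receptors are transcription factors that carry a zinc-finger DNA-binding domain and a ligand-binding domain, and many of them switch between corepressors and coactivators when a hormone, vitamin or lipid occupies the ligand pocket. Hdac3 is the histone deacetylase of corepressor complexes such as the one built on NCoR (Ncor1), which several of these receptors recruit when no ligand is bound. In cartilage, thyroid hormone, retinoic acid, vitamin D and glucocorticoids all act on growth plate chondrocytes through members of this family.

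Values are the authors' log2 normalized counts, and differences are log2 values of Cre minus GFP. Depth is unknown, since the table holds no counts. A regularized log is inferred from the heading of the difference column and from the values, and it pulls the libraries together where reads are few. Of 626 genes with a mean under 6, 455 shared their exact pair of values with another gene, and the largest absolute difference among all 626 was 0.24. Differences of scarce receptors are therefore held small on this scale, and each receptor is read against the 500 genes nearest to it in mean level. Counts and medians cover the 26 receptors with a mean of at least 5.64, which is 50 on the count scale, among 12809 such genes. Nr2f1 lay under that minimum.

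The receptor genes differed little between the libraries as a group. Their median difference was 0.04, beside -0.00041 for all 12809 genes, and their median absolute difference was 0.11 beside 0.09. Above 0 lay 15 of 26 receptors, and 49.9% of all genes did. Of the 26 receptors, 0 were 2-fold higher and 0 were 2-fold lower in the Cre-labelled library, where 0.734% and 0.0703% of all genes were. At 1.5-fold, 1 receptor was higher (Nr4a2) and 0 were lower, beside 2.25% and 0.952% of all genes. A member count of this size cannot be set apart from that background. Within 0.1 of 0 lay 12 of 26 receptors (46.2%), and 54.8% of all genes. An absolute difference of 0.33, which 10% of all genes exceed, was reached by 4 of 26 receptors, namely Nr4a2, Vdr, Rora and Rarg. Added up on the linear scale, the receptors made up 0.0631% of all values in the Cre-labelled library and 0.0647% in the GFP-labelled library.

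**Figure D1:**
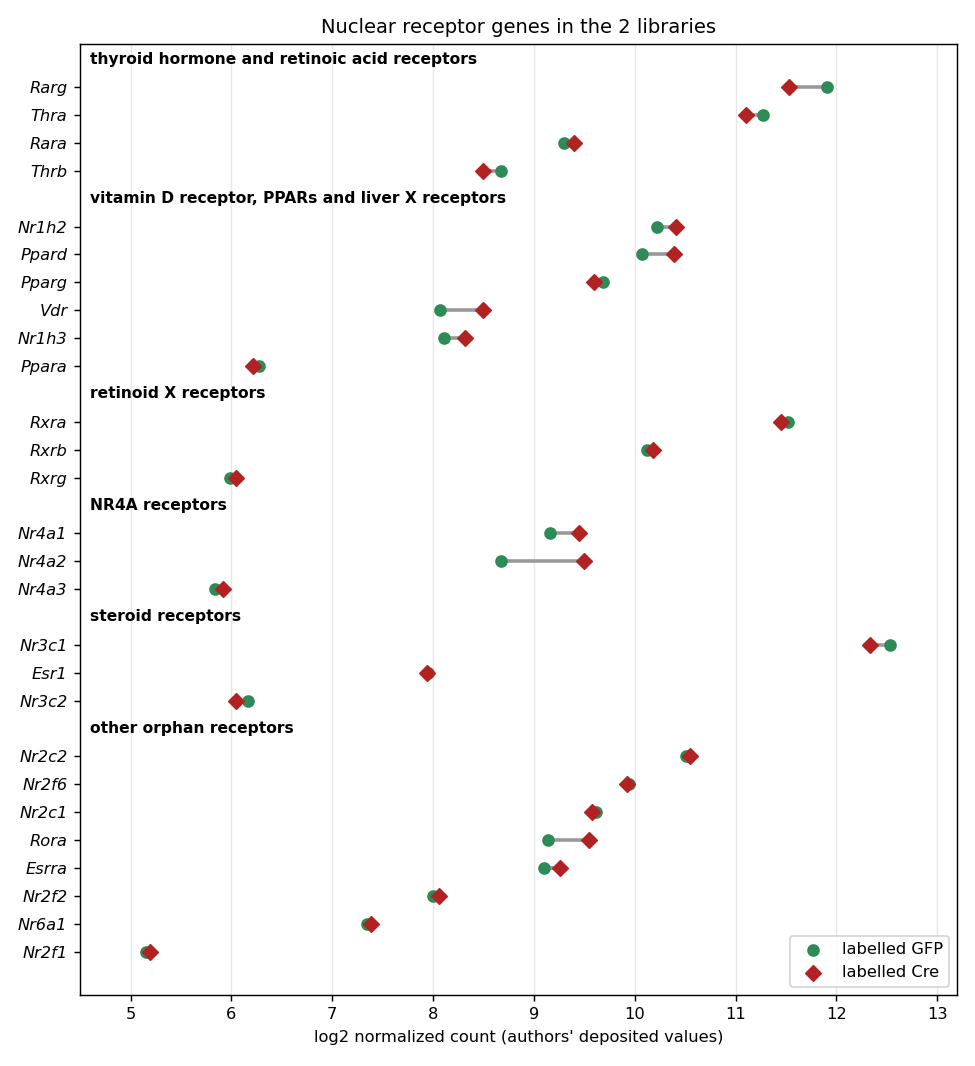
Log2 normalized count (horizontal axis) of the 27 receptor genes in the table, grouped by role, with a red diamond for the Cre-labelled library and a green circle for the GFP-labelled library, 1 library each. The widest gap is that of Nr4a2, 9.50 against 8.67, and Rarg shows the widest gap with GFP on the right, 11.53 against 11.91.

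The NR4A receptors are products of immediate-early genes, which need no natural ligand for their activity and whose genes are switched on quickly by cAMP, growth factors and inflammatory signals. All 3 were higher in the Cre-labelled library, as were 49.9% of all genes. Nr4a2 (chromosome 2, 57106830 to 57124003, minus strand, GRCm38) was at 9.50 in the Cre-labelled library and 8.67 in the GFP-labelled library. That is a difference of 0.83, or 1.78-fold, the largest of any listed receptor, and 1.60% of the 500 genes of nearest level differed by as much. Nr4a1 (chromosome 15, 101254269 to 101274795, plus strand) was at 9.45 against 9.16, a difference of 0.29 that 12.4% of its nearest genes matched or exceeded. Nr4a3 was scarce in both libraries, at 5.92 against 5.84. Its difference of 0.08 was matched or exceeded by 40.4% of the nearest genes, among which the largest absolute difference was 0.29. Per kilobase of exon, Nr4a2 held 46.0% of the summed NR4A level in the Cre-labelled library and 36.8% in the GFP-labelled library, and Nr4a1 held 51.4% and 59.7%.

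The promoters of the NR4A genes are shown because these paralogues lie on 3 chromosomes and share a sequence feature. That feature was chosen after their values had been seen, and any bearing on their differences was not tested. Each promoter holds 4 copies of TGACG on either strand, the half-site of the cAMP response element, within 250 bases before its RefSeq start. Copies on the other strand are written CGTCA. The copies are in capitals, sequences run 5′ to 3′ along the gene, and coordinates are GRCm38.p6. The Nr4a2 window is chr2:57124004-57124253 (minus strand) and that of Nr4a1 is chr15:101266596-101266845 (plus strand), neither of them covered by an annotated exon, and the latter inside the span of a longer Nr4a1 gene model. Of the Nr4a3 window, the 98 bases before the first annotated exon are printed (chr4:48045055-48045152, plus strand), with 3 of its 4 copies.
Nr4a2: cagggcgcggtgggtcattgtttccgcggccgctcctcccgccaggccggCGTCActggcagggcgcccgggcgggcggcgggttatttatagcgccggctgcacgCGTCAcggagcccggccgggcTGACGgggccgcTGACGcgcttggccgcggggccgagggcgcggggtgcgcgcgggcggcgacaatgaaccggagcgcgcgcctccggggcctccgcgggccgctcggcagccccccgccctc
Nr4a1: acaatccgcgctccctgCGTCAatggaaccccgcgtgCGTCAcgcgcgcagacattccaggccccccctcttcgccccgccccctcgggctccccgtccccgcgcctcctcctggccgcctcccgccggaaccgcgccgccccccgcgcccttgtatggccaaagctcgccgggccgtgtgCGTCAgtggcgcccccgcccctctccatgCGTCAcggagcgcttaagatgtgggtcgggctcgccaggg
Nr4a3: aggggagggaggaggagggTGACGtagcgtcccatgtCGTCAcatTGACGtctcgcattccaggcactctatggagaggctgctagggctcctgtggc

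The copy nearest to the start lay 111 bases before it in Nr4a2, 40 in Nr4a1 and 147 in Nr4a3. At least 1 copy of TGACG was found in 17.8% of 32841 RefSeq promoter windows of the same length, and 4 or more in 0.137%. The motif contains a CpG, and among the 7119 windows with at least 18 CpG, the count of the Nr4a3 window, these shares were 32.6% and 0.548%. Of the 47 windows found for 30 of the 32 listed receptors, the NR4A windows were the 3 with 4 or more. The full palindrome TGACGTCA was in 1.55% of all windows and in none of the receptors' windows. The NF-kappaB patterns searched, GGGA and TCC or GGGG and CCC with 4 bases between, were in 3.36% and 4.77% of all windows. They were in none of the NR4A windows. The spacing was fixed, so shorter NF-kappaB sites could not be found, and these windows cannot be said to lack such sites. The motifs were chosen after the values had been seen, and a match describes letters only.

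Among the thyroid hormone and retinoic acid receptors, the classical partners of NCoR, 3 of the 4 in the table were lower in the Cre-labelled library. So were 6416 of all 12809 genes, and a count over 4 genes cannot be set apart from that background. Rarg, the retinoic acid receptor gamma gene (chromosome 15, 102234938 to 102257517, minus strand), was at 11.53 in the Cre-labelled library and 11.91 in the GFP-labelled library. Its difference of -0.38 was the lowest of the listed receptors, and 7.40% of its nearest genes differed by as much. Rara was at 9.40 against 9.30, a difference of 0.10. Rarg held 81.8% of the summed level per kilobase of Rara and Rarg in the Cre-labelled library and 86.2% in the GFP-labelled library, so gamma was the larger of these isotypes in both.

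Thra, thyroid hormone receptor alpha, was at 11.10 against 11.27, and Thrb, the beta receptor, at 8.50 against 8.67. Both differences were -0.17, and 21.6% and 29.0% of their nearest genes differed by as much. Thra held 90.7% of their summed level per kilobase in both libraries. Its exons share 263 bases with those of Nr1d1 on the opposite strand. The strand setting of the counting is not given, and the kit name alone does not settle whether strand was kept. Reads in these shared bases therefore cannot be assigned.

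Rarb is the receptor gene best known for answering to retinoic acid through its own promoter. It was not in the table. The direct repeat of receptor half-sites with 5 bases between, in capitals below, was found in its RefSeq window and in no other listed receptor's window, and in 0.088% of all windows. It starts 53 bases before the RefSeq start. The 29 bases printed, with 6 flanking bases on each side of the repeat, are chr14:16575507-16575535 (minus strand, GRCm38.p6) and lie within an annotated exon. The half-sites searched were AGGTCA or GGGTCA or AGTTCA or GGTTCA in each place, on both strands.
Rarb: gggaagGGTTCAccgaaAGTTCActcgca

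The vitamin D receptor, the PPARs and the liver X receptors respond to vitamin D, fatty acids and oxysterols and pair with a retinoid X receptor. Of these 6 members, 4 lay above 0, beside 49.9% of all genes, and their median was 0.20. A count over 6 genes cannot be set apart from that background. Vdr (chromosome 15, 97854425 to 97910630, minus strand) was at 8.50 in the Cre-labelled library and 8.07 in the GFP-labelled library, a difference of 0.43 that 7.00% of its nearest genes reached. Ppard, the broadly expressed fatty acid receptor delta (chromosome 17, 28232700 to 28301474, plus strand), was at 10.39 against 10.07, a difference of 0.32 that 10.2% reached. The liver X receptor genes differed by 0.21 and 0.20, where Nr1h3 was at 8.32 against 8.11 and Nr1h2 at 10.41 against 10.22.

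Pparg, the adipocyte regulator, lay slightly below 0, at 9.60 against 9.69. Ppara was scarce, at 6.21 against 6.27, and the largest absolute difference among its 500 nearest genes was 0.42. Pparg held 57.0% of the summed PPAR level per kilobase in the Cre-labelled library and 63.2% in the GFP-labelled library, and Ppard 38.8% and 32.3%. With the longest transcript as the length, Ppard and Pparg were near even in the Cre-labelled library, at 48.2% and 48.9%.

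The retinoid X receptors, common partners of the receptors above, were near level. Rxra was at 11.45 in the Cre-labelled library and 11.52 in the GFP-labelled library, Rxrb at 10.18 against 10.12, and Rxrg at 6.05 against 5.99. None of these differences exceeded 0.07 in size. Rxra was the leading isotype, with 61.5% of their summed level per kilobase in the Cre-labelled library and 63.5% in the GFP-labelled library.

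All 3 steroid receptor genes in the table were below 0, none by more than 0.20. So were 6416 of all 12809 genes below 0, and a count over 3 genes cannot be set apart from that background. Nr3c1, the glucocorticoid receptor gene, was the most abundant listed receptor before scaling by length, at 12.33 in the Cre-labelled library and 12.53 in the GFP-labelled library. Of its nearest genes, 25.2% differed by as much. Nr3c2, the mineralocorticoid receptor gene, was scarce, at 6.05 against 6.17. Esr1, the estrogen receptor alpha gene, was at 7.94 against 7.95, a difference of -0.01 that shrank to -0.0042 with both libraries scaled to equal totals.

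The other orphan receptors had a median of 0.04 over 7 genes. Rora, which acts in cerebellum, immune cells and the circadian clock (chromosome 9, 68653786 to 69388246, plus strand), was at 9.55 in the Cre-labelled library and 9.14 in the GFP-labelled library. Its difference of 0.41 was reached by 7.20% of its nearest genes. Esrra, a regulator of mitochondrial genes, was at 9.26 against 9.10. Nr2f2, a COUP-TF receptor gene of mesenchymal and venous cells, was at 8.06 against 8.00, and its relative Nr2f1 at 5.19 against 5.15. Nr6a1, the germ cell nuclear factor gene, was at 7.38 against 7.35.

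The testicular receptor genes Nr2c1 and Nr2c2 were at 9.58 against 9.62 and at 10.55 against 10.51, and Nr2f6 was at 9.92 against 9.94. Values of Nr2f6 and Nr2c2 are uncertain, since 54.4% of the exon bases of Nr2f6 overlap Ocel1 and 30.7% of those of Nr2c2 overlap Mrps25, both on the opposite strand. Nr2f2 shares 7.46% of its exon bases with B130024G19Rik, also on the opposite strand. Ocel1 was at 6.92 against 6.81 and Mrps25 at 9.41 against 9.38, so these partners differed by little as well.

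**Figure D2:**
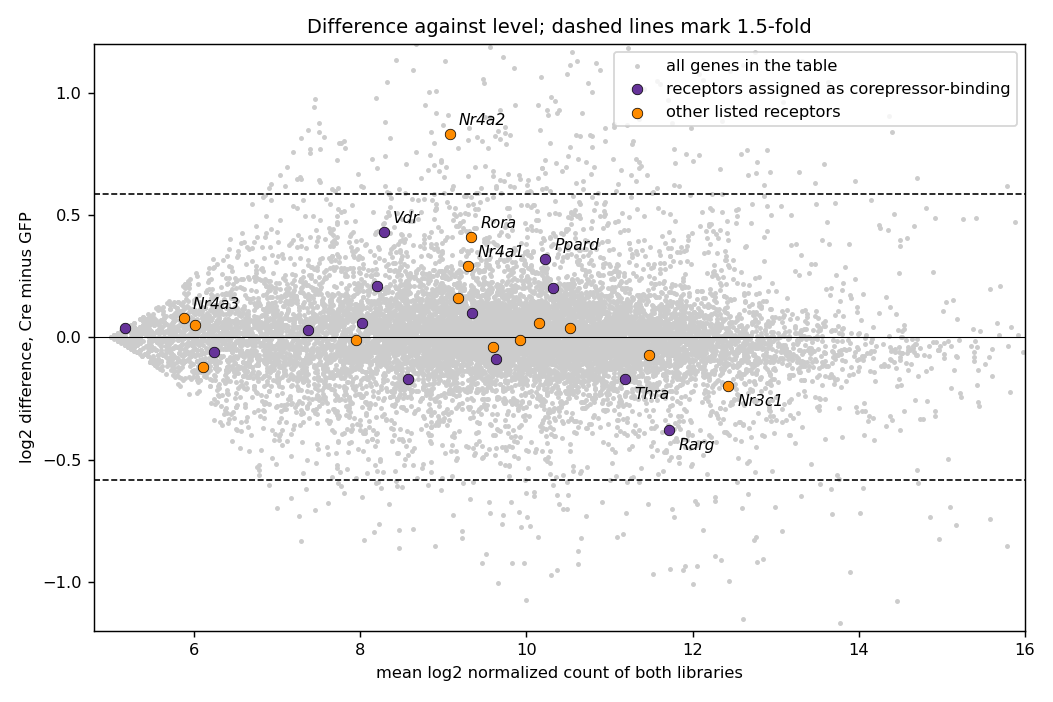
Log2 difference of Cre minus GFP (vertical axis) against the mean log2 normalized count (horizontal axis) for all genes in grey and the 27 receptors in colour, purple where they were assigned as corepressor-binding and orange otherwise. Dashed lines mark 1.5-fold, and 88 genes lie outside the plotted range. Nr4a2 is the only receptor past a dashed line, and the grey cloud narrows to 0 at the lowest levels, where Nr2f1 and Nr4a3 lie.

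Receptors known to bind corepressor complexes with Hdac3 were then set against the rest, to ask whether the genes of its partner receptors differed from those of other receptors. The assignment came from general knowledge and held Thra, Thrb, Rara, Rarb, Rarg, Vdr, Nr1h2, Nr1h3, Ppara, Ppard, Pparg, Nr2f1, Nr2f2 and Nr6a1. The median difference was 0.05 over 12 corepressor-binding receptors and 0.04 over 14 others. The gap between these medians was 0.00082. Above 0 lay 7 of 12 and 8 of 14, and the ranges overlapped, from -0.38 (Rarg) to 0.43 (Vdr) and from -0.20 (Nr3c1) to 0.83 (Nr4a2). The sign of the gap was not stable: it was -0.08 with a narrow assignment to 6 measured thyroid hormone, retinoic acid and liver X receptors. It was -0.13 with a wide assignment that added retinoid X and several orphan and steroid receptors and left 5 others, led by Nr4a2. The comparison concerns the mRNA of the receptors and not their activity.

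The order of the genes by level was taken per kilobase of merged exons on the linear scale. Rarg came first, with 696 normalized counts per kilobase in the Cre-labelled library and 904 in the GFP-labelled library. Nr3c1 followed with 668 and 769, Rxra with 512 and 537, Thra with 477 and 535, and Nr1h2 with 407 and 355. Rarg, Nr3c1, Rxra and Thra, the 4 most abundant by this length, were all lower in the Cre-labelled library, by 0.07 to 0.38. So were 6416 of all 12809 genes, and a count over 4 genes cannot be set apart from that background. At the other end were Nr2f1 with 7.15 and 6.98, Nr4a3 with 10.1 and 9.54, and Nr3c2 with 10.3 and 11.2. The exon length in use is not known for these cells. With the longest transcript as the length, Rarg stayed first and Thra passed Nr3c1. Nr1h2, which was higher in the Cre-labelled library, then passed Rxra, so the 4 most abundant were not all lower by that length.

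**Figure D3:**
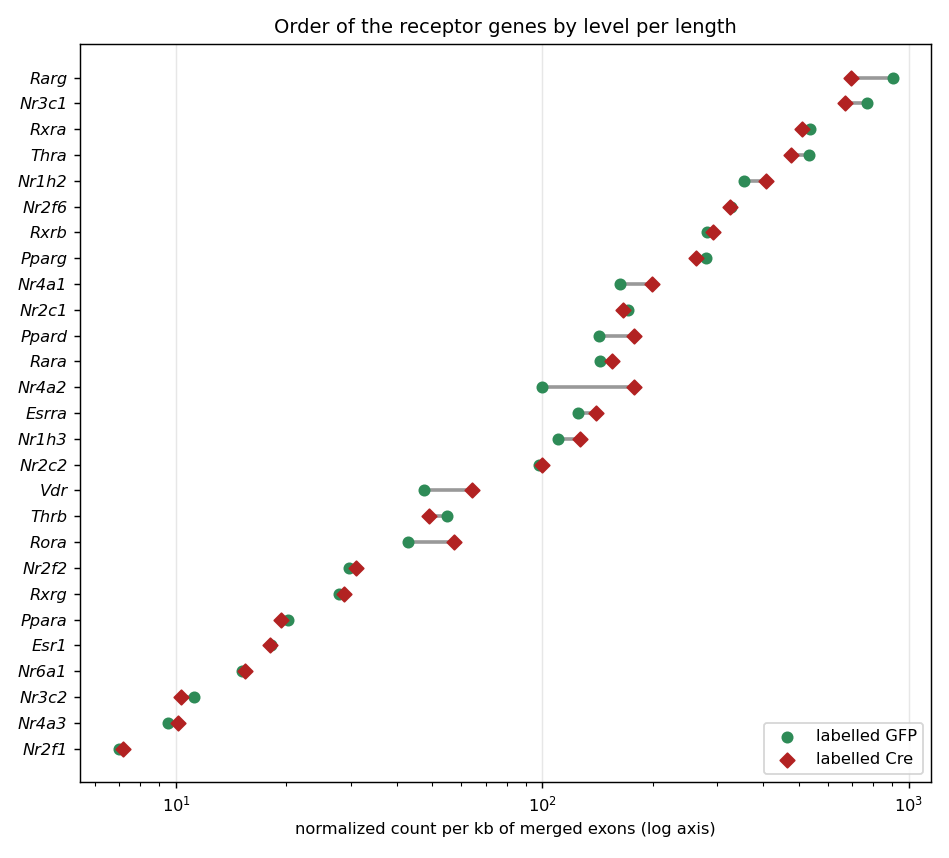
Normalized count per kilobase of merged exons on a log axis for the 27 receptor genes, ordered by the mean of the libraries, with red diamonds for the Cre-labelled library and green circles for the GFP-labelled library. Levels span from 7.15 and 6.98 for Nr2f1 to 696 and 904 for Rarg.

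The corepressors and coactivators that receptors exchange were close to level. Ncor1 was at 12.64 in the Cre-labelled library and 12.63 in the GFP-labelled library. Of 12 corepressor genes, 6 lay above 0, beside 49.9% of all genes. At 1.5-fold, 0 of the 12 were higher or lower, beside 2.25% and 0.952% of all genes, and their median was -0.0014. The largest difference was that of Hr, a thyroid hormone-responsive corepressor gene, at 10.39 against 10.77. Next were the complex subunits Tbl1xr1 at -0.23 and Tbl1x at -0.17, and Nrip1, a corepressor of hormone-bound receptors, at 0.19. Of 16 coactivator genes, 8 lay above 0, 0 reached 1.5-fold and the median was -0.01. Ncoa2 at -0.19 and Ncoa7 at 0.17 differed most there, followed by Carm1 at -0.08 and Pprc1 at 0.08. The counts in both cofactor lists cannot be set apart from the shares of all genes.

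Among genes that make, move or degrade the ligands, Ch25h and Cyp7b1 differed by more than any receptor gene. In the list for thyroid hormone, steroids, vitamin D and oxysterols, 12 of 16 genes passed the minimum and 7 lay above 0. The median was 0.06 (0.23 by the mean, and 0.37 with a minimum 10 times higher). At 1.5-fold, 3 were higher and 1 was lower, beside 2.25% and 0.952% of all genes. Ch25h, which makes an oxysterol and is induced in activated macrophages, was at 9.20 in the Cre-labelled library and 7.72 in the GFP-labelled library, a 2.80-fold difference. Cyp7b1, which breaks oxysterols down, was at 9.41 against 8.41. Dio2, the deiodinase that activates thyroid hormone, was at 11.67 against 10.88. Hsd11b2, which inactivates glucocorticoids, was lower, at 6.88 against 7.71.

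In the list for retinoids, 10 of 16 genes passed the minimum and 4 lay above 0, with a median of -0.04. Crabp2, which carries retinoic acid to its receptors, was at 8.61 in the Cre-labelled library and 7.99 in the GFP-labelled library, and was the 1 gene at 1.5-fold. Aldh1a1, a retinaldehyde dehydrogenase gene, was at 7.93 against 8.48. Crabp1, the gene of a related binding protein, was at 6.73 against 6.99.

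Lists of genes known to answer to each receptor gave medians near 0 for most receptors. For PPAR targets the median was -0.002 over 18 genes, for liver X receptor targets 0.03 over 12, for thyroid hormone receptor targets 0.02 over 8 and for estrogen-related receptor targets -0.04 over 13. Single genes stood out within them. Angptl4, a lipase inhibitor gene induced by PPARs and by hypoxia, was at 11.32 in the Cre-labelled library and 9.93 in the GFP-labelled library, while Cidec at -0.34, Fabp3 at -0.27 and Fabp4 at 0.24 came next. Abca1, the cholesterol exporter, was at 12.09 against 11.46, while the other liver X receptor targets Apoe and Srebf1 were lower, at -0.40 and -0.34, and Abcg1 differed by 0.21.

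In the thyroid hormone list, Bcl3, which is also an NF-kappaB cofactor gene, differed by 1.28, and Thrsp, Dbp and Hr by -0.85, -0.42 and -0.39. Among estrogen-related receptor targets, all of them genes of energy metabolism, the largest differences named here were -0.18 for Sdhb, -0.10 for Atp5b and 0.09 for Sdhd. For retinoic acid receptor targets the median was 0.21 over 10 genes, with 6 above 0 and Crabp2 alone at 1.5-fold, and it was 0.10 by the mean. Ccnd1 differed there by -0.52, Rarres1 by -0.42 and Rarres2 by 0.41.

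For vitamin D receptor targets the median was 0.27 over 9 genes (0.49 by the mean), with 7 above 0. At least 1.5-fold higher were 3, beside 2.25% of all genes. The 2 below 0 were Ank at -0.21 and Bglap at -0.06, named after their values were seen. Tnfsf11, which encodes the osteoclast factor RANKL, was at 10.33 in the Cre-labelled library and 8.65 in the GFP-labelled library, the matrix phosphoprotein gene Spp1 at 16.85 against 15.50, and Igfbp3 at 11.18 against 10.40, and Slc8a1 differed by 0.36. Cyp24a1, the most direct vitamin D target, was not in the table. For glucocorticoid receptor targets the median was 0.65 over 16 genes, with 14 above 0. At least 1.5-fold higher were 8 of them, beside 2.25% of all genes. The leading members Saa3 (3.40), Lcn2 (3.12), Mt2 (2.10) and Mt1 (1.59) also belong to the acute-phase response or bind metals. The other 12 members ran from -0.33 (Tsc22d3) to 1.45 (Cebpd), and the mean of the list was 0.96. Among these 12, Nfkbia differed by 1.17, Ddit4 by 0.80 and Errfi1 by 0.75, while Sgk1 differed by 0.21, Fkbp5 by 0.08 and Zbtb16 by -0.10. These genes of the 12 were named after their values were seen, and the activity of the receptor was not tested. These lists were drawn up with earlier results of these libraries known, so their directions are not independent evidence.

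**Figure D4:**
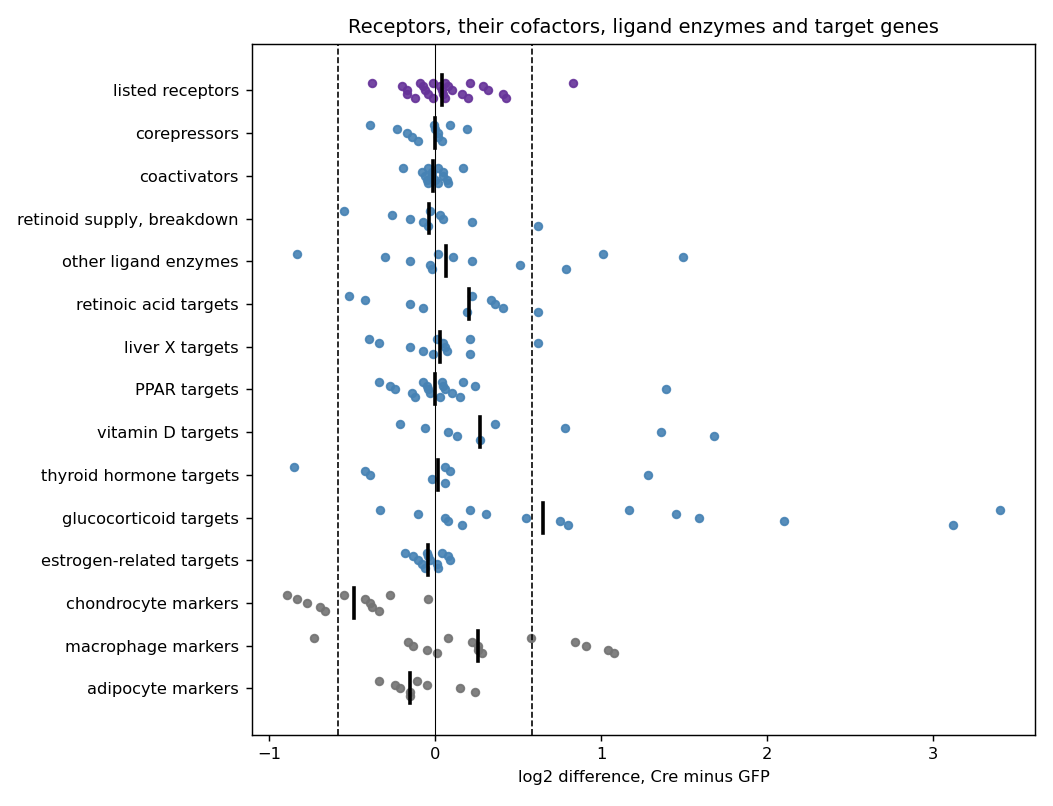
Log2 difference of Cre minus GFP (horizontal axis) for each gene past the minimum in the listed receptors (purple), their cofactors, ligand enzymes and target genes (blue) and cell type markers (grey), with a black bar at the median and dashed lines at 1.5-fold. Apart from Nr4a2 at 0.83, receptors, corepressors and coactivators lie within 0.43 of 0, with medians of 0.04, -0.0014 and -0.01, while glucocorticoid targets spread up to 3.40.

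Markers of other cell types differed between the libraries too. Of 15 macrophage and leukocyte markers, all were in the table and 11 lay above 0. Their median was 0.26, the range ran from -0.73 (Mrc1) to 1.08 (Emr1), and their summed level was 15.75 in the Cre-labelled library against 15.17 in the GFP-labelled library (log2). Cd14 differed by 1.04, Lyz1 by 0.91 and Lyz2 by 0.84, while Csf1r and Cd68, named after their values were seen, differed by 0.08 and -0.05. Vdr, Nr1h3, Ppard, Rora and the NR4A genes are expressed in macrophages as well as in skeletal cells, and the part of macrophage RNA in their differences was not tested.

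All 12 chondrocyte markers were in the table and lay below 0, with a median of -0.48 and a range from -0.89 (Matn3) to -0.04 (Comp), and a summed level of 20.60 against 21.05. Acan differed by -0.83, Hapln1 by -0.77 and Lect1 by -0.69. Rarg, Thra and Nr3c1 were lower in the same library, and the part of chondrocyte RNA in that was not tested. In bulk RNA, fewer cells of a type and less RNA per cell cannot be told apart.

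Adipocyte markers were present in both libraries, with a summed level of 15.51 against 15.49, and 7 of 9 lay below 0, with a median of -0.15. Besides Cidec and Fabp4, given above, Adipoq differed by -0.24 and Retn by -0.21. Pparg lay on the same side, at -0.09. Medians were 0.07 over 6 endothelial markers, 0.08 over 10 fibroblast and perichondrial markers, -0.21 over 8 osteoblast markers, 0.31 over 5 skeletal muscle markers and -0.10 over 4 neuronal and glial markers. With a minimum 10 times higher, each of the last pair of lists kept 1 gene, Ttn at 0.67 and S100b at -0.52.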

How the data were processed

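RNA from 2 chondrocyte libraries was sequenced with the Illumina TruSeq mRNA kit, per the labels' protocols. Build mm10 and the tools bcl2fastq (1.8.4), HTSeq and TopHat2 (2.0.6) are listed in the submitters' processing notes. For the annotation, the strand setting and reads with several alignments, the choice is not given in the sources used here. The authors deposited 1 table of log2 values, 1 column per library, with their mean and a difference that equals GFP minus Cre in every row. It was turned here to Cre minus GFP. The transform is inferred from the values. A symbol is the row name without its chromosome prefix.

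The minimum was a mean of 50 on the count scale, with 1.5-fold and 2-fold as sizes. With 1 library per group no test was run. Each receptor was ranked among the 500 genes of nearest mean. All listed receptors, Hdac3, Ncor1 and up to 4 genes of each other list, those with the largest absolute difference, were named, and some genes that this rule picks are not reported here. Members and lists were chosen with earlier results of these data known. Gene models are GENCODE M21 (GRCm38, the assembly also called mm10), and promoter windows are RefSeq, GRCm38.p6. Counts and motif searches were checked on simulated input. Python 3.11.15, pandas 2.3.3, numpy 2.4.6 and matplotlib 3.10.9 were used.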

Additional observations from a re-analysis of the deposited data

How the results depend on the processing

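The count of 0 receptors at 2-fold held with no minimum, with one 10 times higher and under both scalings tried, and became 1 at 1.5-fold. The median of all receptors stayed between 0.04 and 0.07 under every alternative run, including the mean and, chosen after seeing the data, the omission of the 4 receptors that share over 5% of their exon bases with another gene (0.05). The gap between corepressor-binding and other receptors stayed within 0.1 of 0 except under the wide assignment, where it was -0.13. It was -0.01 without a minimum, -0.04 at the higher minimum, -0.06 by the mean and -0.08 with the narrow assignment, so its sign depends on these settings, and the cause was not tested. With the longest transcript as length, 95.2% of pairs of receptors kept their order by level. Centring on the median of all genes and scaling to equal totals shifted every difference by less than 0.01. Of 110 alternative list values, 103 stayed within 0.1 of the main one. Taking the mean moved 4, those of the retinoic acid, vitamin D and glucocorticoid receptor targets and of the thyroid, steroid and oxysterol ligand enzymes. The higher minimum moved 3, those of the same ligand enzymes and of the muscle and neural markers. What depth limits cannot be stated, since it is unknown. No paired analysis was possible because there is only 1 Cre and 1 GFP library.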

Other observations

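The motif count of the NR4A promoters also picks other genes. Besides the NR4A genes, 41 genes had a RefSeq window with 4 or more copies of TGACG, and 33 of them were in the table past the minimum. Of these 33, 17 lay above 0, beside 49.9% of all genes. At 1.5-fold, 0 were higher or lower, beside 2.25% and 0.952% of all genes. Counts of this size cannot be set apart from that background. The differences of the 33 genes ran from -0.21 (Ell2) to 0.30 (Trp53inp2), with a median of 0.00. Trp53inp2, an autophagy gene, was at 12.13 in the Cre-labelled library and 11.83 in the GFP-labelled library, and Ddx51, an RNA helicase gene, at 9.90 against 9.70. This set was chosen by sequence after the NR4A values had been seen.

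Of 17 nuclear receptor genes outside the list, 4 were in the table. Among them, the circadian repressor genes Nr1d2 and Nr1d1 differed by -0.15 and 0.01.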
